A study of Mus musculus with 8 samples.

Results

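The ERK feedback genes examined here are Dusp4, Dusp6, Spry1, Spry2, Spry4, Spred1, Spred2, Etv4, Etv5 and Phlda1, described through every array probe set whose platform annotation names one of them and no other gene. All 10 genes were measured, by 22 of the 45141 probe sets of the array. A further 2 probe sets are annotated to Etv5 together with another gene and were not used. Expression was profiled in bulge cells, the stem cell compartment of the hair follicle, from mouse back skin treated with the mutagen DMBA and the tumour promoter TPA. The arrays came from 4 animals labelled G9a cKO and 4 labelled G9a WT, all aged 15 weeks. Both agents were put on all animals each week for 6 weeks, starting when they were 8 weeks old. DMBA was at 0.25 mg/ml and TPA at 0.02 mg/ml, 200 µl of each in acetone, so there was no untreated group. G9a is a histone H3 lysine methyltransferase encoded by Ehmt2, and cKO stands for a conditional knockout. The promoter that drives the recombinase, the deleted exons, the sex of the animals and the way the cells were isolated are not stated in the labels.

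In the RAS-ERK cascade, growth factor receptors switch on RAS, which acts through RAF and MEK on the kinase ERK. ERK activity raises the transcription of its own inhibitors, so the level of these transcripts is often read as a measure of pathway output. Dusp proteins remove phosphate from ERK, Sprouty and Spred proteins act upstream of it at the level of RAS and RAF, and Etv4 and Etv5 are ETS transcription factors whose genes are induced by the pathway. The question addressed by the comparison was whether these transcripts differ with the G9a genotype in treated skin, which the labels call pre-neoplastic. None of the 10 genes passed the test over all probe sets. The largest difference was in Dusp6, lower in cKO by a log2 change of -0.38, and 9 of the 10 probe sets of Spred1 and Spred2 lay above 0, with log2 changes up to 0.21.

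The promoters of Dusp6, Spred1 and Spred2 are shown because Dusp6 had the lowest p among the probe sets below 0 and the Spred genes the lowest among those above 0. Each sequence runs 5′ to 3′ from 250 bases before to 50 bases after the RefSeq start site in GRCm38.p6. They are chr10:99262981-99263280 for Dusp6, chr2:117120821-117121120 for Spred1 and chr11:19924192-19924491 for Spred2, all on the plus strand. Capitals mark matches to CGGAAG, a core that ETS factors can bind, on either strand.
Dusp6: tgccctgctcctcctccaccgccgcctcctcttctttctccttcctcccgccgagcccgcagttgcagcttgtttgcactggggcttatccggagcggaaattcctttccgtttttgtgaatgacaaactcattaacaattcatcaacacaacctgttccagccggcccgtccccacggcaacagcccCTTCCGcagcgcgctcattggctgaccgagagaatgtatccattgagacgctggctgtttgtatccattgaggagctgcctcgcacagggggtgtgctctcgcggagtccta
Spred1: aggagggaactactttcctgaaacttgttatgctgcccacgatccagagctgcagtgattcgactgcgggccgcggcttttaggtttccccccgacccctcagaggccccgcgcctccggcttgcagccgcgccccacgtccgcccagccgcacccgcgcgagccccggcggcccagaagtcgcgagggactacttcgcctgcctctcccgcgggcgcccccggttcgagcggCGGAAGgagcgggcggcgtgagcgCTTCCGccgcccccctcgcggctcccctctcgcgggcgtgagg
Spred2: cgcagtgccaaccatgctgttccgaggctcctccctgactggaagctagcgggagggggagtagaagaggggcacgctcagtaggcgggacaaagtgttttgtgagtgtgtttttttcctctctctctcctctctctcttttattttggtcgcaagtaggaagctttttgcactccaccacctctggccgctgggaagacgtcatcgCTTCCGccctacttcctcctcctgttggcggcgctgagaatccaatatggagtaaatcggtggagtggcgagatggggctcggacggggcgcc

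Dusp6 and Spred2 had 1 such match each, at -62 and -43 from the start site, and Spred1 had 2, beginning at -17 and at 8. Of 32851 RefSeq mouse promoters of this length, 16.9% held CGGAAG. RefSeq promoters were at hand for 6 of the 10 genes, 7 sequences in all, of which 3 held it. Another ETS form, CCGGAA, which can overlap the first, was found in 1 of the 7, in Spry2, against 14.9% of all promoters. The cAMP response element TGACGTCA, the AP-1 site TGANTCA and the CArG box were in none of the 7, against 1.79%, 7.81% and 1.63% of all promoters, each searched on both strands. A match is a run of letters, and binding was not measured.

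Of the 45037 probe sets that are not controls, 266 were lower (0.591%) and 536 higher (1.19%) in cKO than in WT at a limma adjusted p under 0.05, together 1.78%. The targeted gene Ehmt2 averaged 5.85 ± 0.41 on the cKO arrays and 9.07 ± 0.19 on the WT arrays by 1460692_PM_at (log2, SD, n = 4 each; limma adjusted p = 6.23e-05), whereas 1426888_PM_at stood at 8.41 ± 0.02 in cKO and 8.41 ± 0.01 in WT, and the position of either relative to the deletion is not given. Array medians lay between 5.87 and 5.95. WT replicate 4 stood apart from the other WT arrays on the first principal component (37.0% of the variance), at 1.42 against 15.3 to 23.0. Among the cKO arrays replicate 1 also stood apart, at -6.53 against -18.6 to -16.6, shifted toward the WT arrays. Results that rest on WT replicate 4 are given with and without it. It was picked by its values, as the WT array nearest the cKO arrays. Without it 862 probe sets were called higher and 829 lower, so p-values from that fit are descriptive. All 11 bulge markers, among them Cd34, Krt15 and Krt14, were bright, with the brightest probe set of each at a percent rank of mean level of 92.4 or above. Markers of leukocytes, fibroblasts and endothelium were mostly dim, with 5 of 8, 4 of 6 and 4 of 5 in the lowest 40% of probe sets. The same held for 4 of 5 of muscle and fat. Markers of differentiated epidermis and melanocytes were mostly not dim, with 1 of 7 and 2 of 6 there and percent ranks up to 99.7 and 92.4. In RNA from many cells, fewer cells of a type and less RNA per cell cannot be told apart.

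Some marker genes differed with genotype. Of 20 bulge probe sets 14 lay below 0 and 1 passed, that of the transcription factor gene Nfatc1, at 7.36 ± 0.15 in cKO and 7.88 ± 0.19 in WT on 1447085_PM_s_at, with a limma adjusted p of 0.0339. Among 10 probe sets of differentiated epidermis, all 3 of Sbsn were higher in cKO, with log2 changes of 0.27 to 0.78 and limma adjusted p of 0.00131 to 0.00246. In the same list Krtdap was lower, at 7.10 ± 0.08 in cKO and 7.73 ± 0.24 in WT, with a limma adjusted p of 0.0144. Of 7 fibroblast probe sets 1 passed, that of the collagen gene Col1a1, lower at 6.17 ± 0.19 in cKO and 7.08 ± 0.11 in WT, with a limma adjusted p of 0.00114. By limma 0 of 10 melanocyte probe sets passed (9 below 0, 2 lower at an unadjusted p under 0.05), as did 0 of 8 leukocyte and 0 of 6 endothelial probe sets (0 at an unadjusted p under 0.05) and 0 of 9 of muscle and fat (1 at an unadjusted p under 0.05, higher). Array means of the gene levels overlapped between the genotypes for all of these lists except the fibroblast one. There they stood at 4.75 to 4.89 on the cKO arrays and 4.91 or above on the WT arrays (log2). That mean includes Col1a1, with a log2 change of -0.91. Of all 7 fibroblast probe sets 3 lay below 0 and 4 above, with a median log2 change of 0.01. The part of these markers in the results on the ERK feedback genes was not tested.

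Of the 22 probe sets 0 were called in either direction by limma. At an unadjusted p under 0.05, 1 was lower in cKO, against 6.53% of all probe sets, and 5 were higher, against 6.46%. Of these 5, 4 belong to Spred1 and Spred2, whose probe sets report on the same transcripts and are not independent. A log2 change below 0 was found in 8 of the 22, against 51.9% of all probe sets. The median log2 change was 0.08 over the 22 and -0.0036 over all probe sets. In 1 of the 22 all cKO values lay above all WT values, which held for 4.15% of all probe sets, and the opposite held in 0 of the 22 and 3.19% of all. In the simulated comparison over 45037 probe sets, 28% of probe sets seeded with a log2 change of 0.25 were recovered, 88% of those with 0.5 and 100% of those with 1. The seeded probe sets were drawn at random from the whole array. These rates are therefore not those of the 22, whose SE ran from 0.04 to 0.17, the highest in Dusp6.

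**Figure D1:**
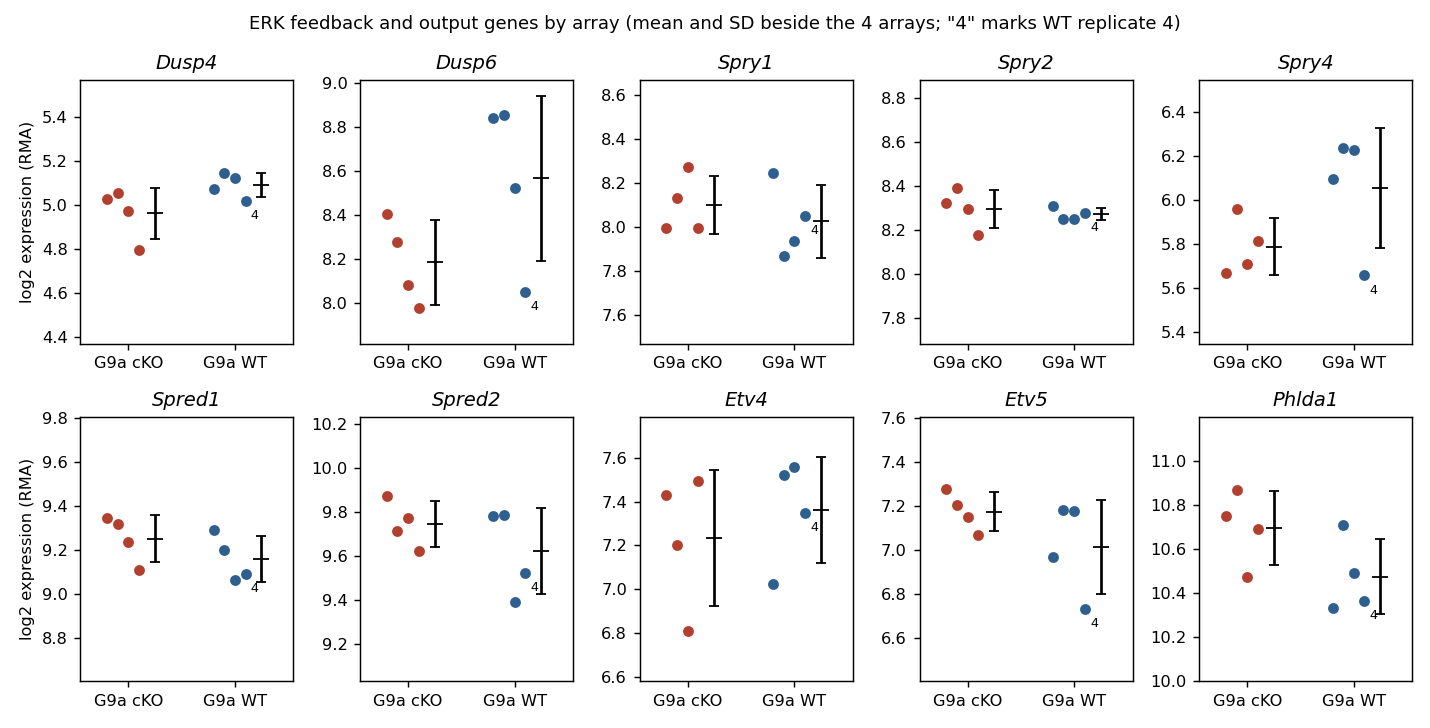
Log2 expression (RMA) of the 10 genes on each of the 4 G9a cKO and 4 G9a WT arrays, by the probe set of each gene with the highest mean. All panels span the same range of log2 units, and bars beside the points give mean and SD. Dusp4, Dusp6 and Spry4 were higher on WT replicates 1 to 3 than on every cKO array, with WT replicate 4 below at least 2 of the cKO arrays. In the other genes the cKO arrays overlap with WT replicates 1 to 3.

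Dusp6 encodes a cytoplasmic phosphatase with high selectivity for ERK, and its transcript is among the most direct readouts of ERK activity. Dusp6 read 8.40, 8.28, 8.08 and 7.98 on the cKO arrays and 8.84, 8.85, 8.52 and 8.05 on the WT arrays (log2, replicates 1 to 4). All 4 cKO values lay below WT replicates 1 to 3, and WT replicate 4 lay below 3 of the cKO arrays. The means were 8.18 ± 0.19 in cKO and 8.56 ± 0.38 in WT (SD, n = 4 each), a log2 change of -0.38 (SE 0.17, limma 95% interval -0.75 to -0.01, limma adjusted p = 0.361). Without WT replicate 4 the log2 change was -0.55 (SE 0.11, limma adjusted p = 0.0297). That array had the lowest WT value for Dusp6, so leaving it out widened the difference by construction.

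Dusp4 encodes a nuclear phosphatase of the same family, which acts on ERK and other MAP kinases. Its single probe set was dim, at a percent rank of 36.5. Dusp4 read 5.02, 5.06, 4.97 and 4.79 on the cKO arrays and 5.07, 5.14, 5.12 and 5.02 on the WT arrays. The log2 change was -0.13 (SE 0.06, limma 95% interval -0.27 to 0.01, limma adjusted p = 0.445), and the groups overlapped because cKO replicates 1 and 2 lay above WT replicate 4.

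The Sprouty genes encode membrane-associated inhibitors of receptor tyrosine kinase signalling. Spry4 was measured by 4 probe sets that differed from each other. On 1440867_PM_at, the brightest of them, Spry4 read 5.67, 5.96, 5.71 and 5.82 in cKO and 6.10, 6.24, 6.23 and 5.66 in WT. WT replicates 1 to 3 were above every cKO array, as in Dusp6, and WT replicate 4 was narrowly below every one. The log2 change was -0.27 (SE 0.12, limma 95% interval -0.54 to 0.01, limma adjusted p = 0.403), and -0.40 without WT replicate 4 (SE 0.08, limma adjusted p = 0.0284). The other 3 Spry4 probe sets, at percent ranks of 7.39 to 40.5, had log2 changes of -0.03 to 0.03 (limma adjusted p = 0.836 to 0.968), so the difference rested on 1 of 4 probe sets.

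Spry1 and Spry2 gave small differences. Spry1 read 7.99, 8.13, 8.27 and 7.99 in cKO and 8.25, 7.87, 7.94 and 8.05 in WT, a log2 change of 0.07 (limma 95% interval -0.13 to 0.28, limma adjusted p = 0.843). Its highest values were those of cKO replicate 3 and WT replicate 1. Spry2 read 8.32, 8.39, 8.29 and 8.18 in cKO and 8.31, 8.25, 8.25 and 8.28 in WT on 1436584_PM_at, and every WT value lay within the range of the cKO arrays. The log2 change of Spry2 was 0.02 on that probe set (limma 95% interval -0.11 to 0.15, limma adjusted p = 0.938) and -0.02 on 1421656_PM_at (limma 95% interval -0.20 to 0.17, limma adjusted p = 0.974).

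The Spred genes encode relatives of Sprouty that bring neurofibromin, the RAS-inactivating protein encoded by Nf1, to the membrane. Spred1 was above 0 on all 5 of its probe sets, with log2 changes of 0.09 to 0.21 (limma adjusted p = 0.266 to 0.841). On 1428777_PM_at, its probe set with the lowest p, Spred1 read 9.33, 9.24, 9.29 and 9.18 in cKO and 9.21, 9.12, 8.98 and 9.06 in WT. The 3 highest values were cKO arrays and the 3 lowest WT arrays, with cKO replicate 4 below WT replicate 1. The log2 change there was 0.17 (SE 0.06, limma 95% interval 0.03 to 0.30, limma adjusted p = 0.266). On 1423160_PM_at, its brightest probe set, Spred1 read 9.35, 9.32, 9.24 and 9.11 in cKO and 9.29, 9.20, 9.06 and 9.09 in WT, with wide overlap.

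Spred2 was above 0 on 4 of its 5 probe sets, with log2 changes of -0.01 to 0.19. Spred2 read 8.25, 8.28, 8.33 and 8.31 in cKO and 8.14, 8.25, 8.00 and 8.02 in WT on 1436892_PM_at. There every cKO array lay above every WT array, cKO replicate 1 only narrowly above WT replicate 2. The log2 change was 0.19 (SE 0.07, limma 95% interval 0.05 to 0.34), and its limma adjusted p of 0.223 was the lowest among the 22 probe sets. On 1434403_PM_at, its brightest probe set, Spred2 read 9.87, 9.71, 9.78 and 9.62 in cKO and 9.79, 9.79, 9.39 and 9.52 in WT (log2 change 0.12, limma adjusted p = 0.667). Leaving out WT replicate 4 did not bring any Spred probe set past the threshold.

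Etv4 and Etv5 encode closely related ETS factors of the PEA3 group. Etv4 read 7.43, 7.20, 6.81 and 7.49 in cKO and 7.03, 7.52, 7.56 and 7.35 in WT, and its spread within each genotype was larger than the difference between them (log2 change -0.13, SE 0.16, limma 95% interval -0.47 to 0.22, limma adjusted p = 0.835). The array with the lowest value was cKO replicate 3. Etv5 read 7.28, 7.21, 7.15 and 7.07 in cKO and 6.97, 7.18, 7.18 and 6.73 in WT (log2 change 0.16, SE 0.10, limma 95% interval -0.06 to 0.38, limma adjusted p = 0.579). WT replicate 4 was the lowest array for Etv5, and without it the log2 change was 0.07.

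Phlda1 encodes a protein with a pleckstrin homology-like domain whose transcript is induced by ERK activity. It read 10.75, 10.87, 10.47 and 10.69 in cKO and 10.33, 10.71, 10.49 and 10.36 in WT. Of the 4 highest arrays 3 were cKO, and cKO replicate 3 lay among the WT arrays. The log2 change was 0.22 (SE 0.10, limma 95% interval 0.01 to 0.43, limma adjusted p = 0.360), the largest above 0 among the 22 probe sets.

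**Figure D2:**
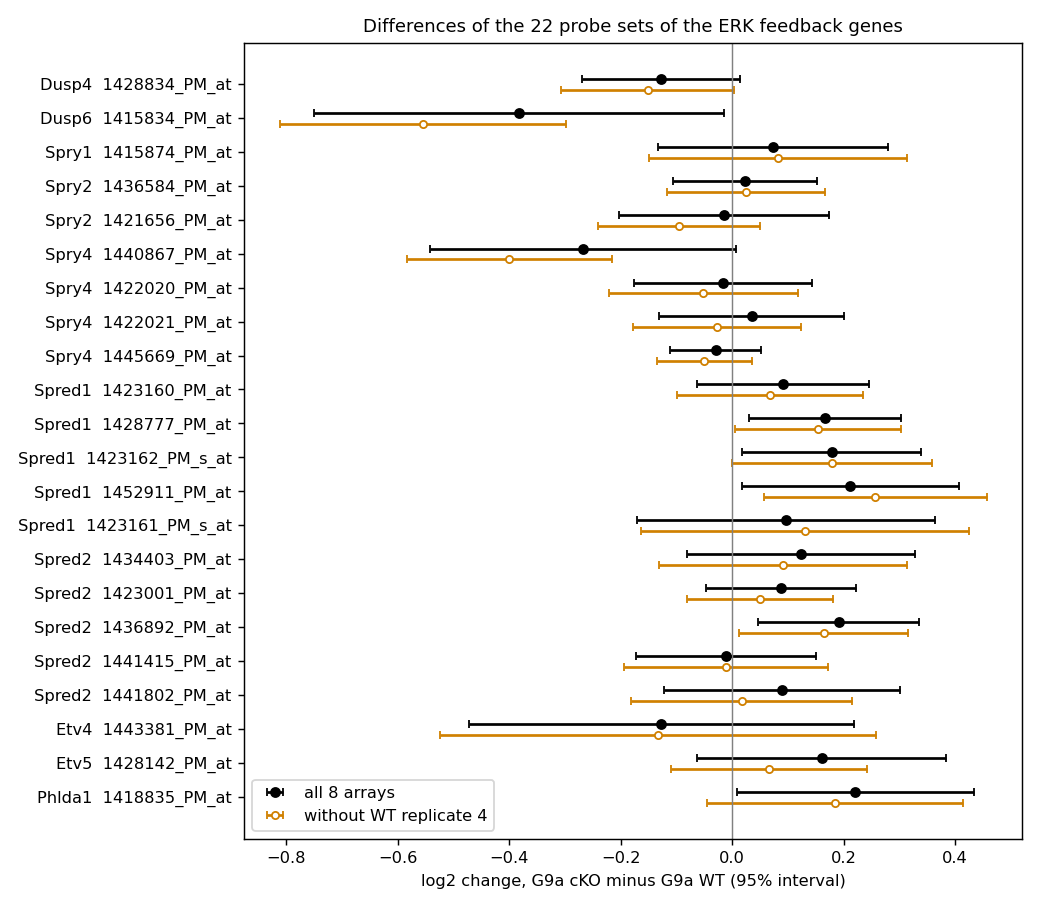
Log2 change, G9a cKO minus G9a WT, of the 22 probe sets with its limma 95% interval, from all 8 arrays (filled) and without WT replicate 4 (open). Dusp6 and 1 Spry4 probe set lie lowest in both fits, at -0.38 and -0.27 with all arrays and -0.55 and -0.40 without that array. Most Spred1 and Spred2 probe sets lie to the right of 0.

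Without WT replicate 4, Dusp6 and Spry4 on 1440867_PM_at were the 2 of 22 probe sets past the threshold, both lower in cKO, where 1.84% of all probe sets were called lower and 1.91% higher. That array was the lowest of the WT arrays for both, so leaving it out widened both differences by construction. With all arrays, or with any other array left out, none of the 22 passed. The 19 genes of the immediate early list are induced within minutes of ERK and stress signalling. Like these 2 transcripts, their mean was higher on WT replicates 1 to 3 than on every cKO array. It stood at -0.10, -0.07, -0.22 and -0.24 on the cKO arrays and 0.27, 0.33, 0.18 and -0.16 on the WT arrays (deviation from the mean of 8 arrays, log2). WT replicate 4 was thus on the side of the cKO arrays in this list as in Dusp6 and Spry4. Among the cKO arrays Spry4 did not follow the list: it was lowest on replicate 1, the list on replicate 4. With the list mean as a covariate, the log2 change of Dusp6 was 0.16 (limma adjusted p = 0.706) and that of Spry4 0.07 (limma adjusted p = 0.926). In that fit 20 of the 22 probe sets lay above 0 and none passed, where 0.115% of all probe sets were called lower and 0.224% higher. Because this mean differed with genotype, the covariate can take up part of the genotype difference itself, and the fit has less power. Its log2 changes are therefore not the same contrast as those without the covariate.

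In the Spred genes and Phlda1, WT replicates 1 to 3 did not all stand above the cKO arrays as they did in Dusp6. The mean of Spred1 and Spred2 stood at 0.16, 0.07, 0.06 and -0.08 on the cKO arrays and 0.09, 0.05, -0.22 and -0.14 on the WT arrays. Thus WT replicates 3 and 4 were the lowest arrays for the Spred genes, while WT replicate 3 lay above every cKO array for Dusp6. Across the 45 pairs of the 10 genes, the Pearson correlation of deviations from the genotype means over 8 arrays had a median of 0.31, and it ran from -0.95 between Spry1 and Etv4 to 0.84 between Spred1 and Spred2. The median against all other probe sets was 0.03. Within the genotypes, Dusp6 correlated with Spred1 and Etv5 at 0.77, with Spred2 at 0.70 and with Spry4 at 0.66. These values are descriptions of 8 arrays that share normalization, and 45 pairs were looked at.

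**Figure D3:**
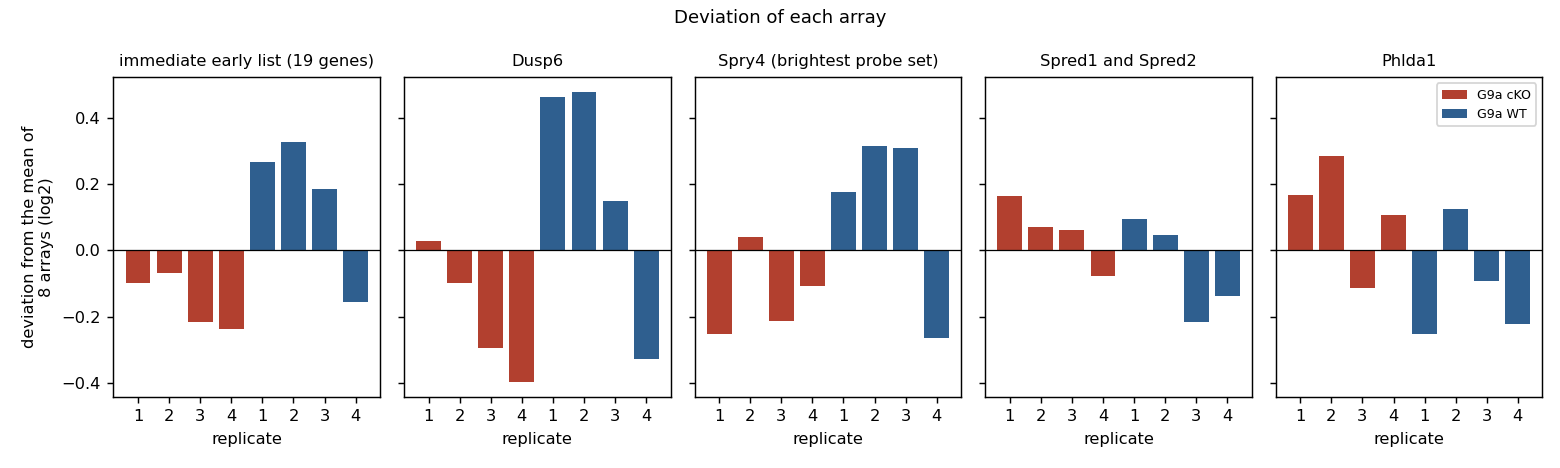
Deviation of each array from the mean of the 8 arrays (log2) for the mean of 19 immediate early genes, Dusp6, Spry4, the mean of Spred1 and Spred2, and Phlda1. Replicates 1 to 4 of G9a cKO come left of those of G9a WT. WT replicate 4 lies below 0 in all 5 panels, and WT replicates 1 to 3 lie above 0 in the first 3.

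The other MAPK phosphatases are relatives of Dusp4 and Dusp6. Of 8 listed genes 7 were measured, by 15 probe sets, of which 0 passed by limma (3 at an unadjusted p under 0.05, all lower) and 13 lay below 0 (median log2 change -0.07). Dusp7, the cytoplasmic ERK phosphatase closest to Dusp6, had the lowest p, at 8.99 ± 0.15 in cKO and 9.37 ± 0.25 in WT on 1427416_PM_x_at, with a limma adjusted p of 0.164. Without WT replicate 4, 4 probe sets of this list were lower, 3 of Dusp7 and 1 of Dusp1, a nuclear phosphatase that is itself an immediate early gene. The other inhibitors of the pathway, such as the receptor inhibitor Errfi1 and the RAS-inactivating Rasa2 and Nf1, showed 11 of 23 probe sets below 0 and 0 called by limma (1 at an unadjusted p under 0.05, higher). The lowest p among them were those of Rasa2 (1455181_PM_at) and of the ubiquitin ligase gene Cbl (1434829_PM_at). Rasa2 stood at 7.36 ± 0.07 for cKO against 7.19 ± 0.08 for WT (limma adjusted p = 0.276). Cbl stood at 7.42 ± 0.05 for cKO against 7.56 ± 0.12 for WT (limma adjusted p = 0.419). On their brightest probe sets the log2 changes were 0.02 for Rasa2 (1422785_PM_at) and -0.02 for Cbl (1450457_PM_at).

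Other output genes of the pathway lay mostly lower in cKO, with 21 of 27 probe sets of 15 genes below 0 (median log2 change -0.12) and 0 called by limma, while 10 were lower at an unadjusted p under 0.05. The stress response gene Ier3 read 10.34 ± 0.12 in cKO and 10.83 ± 0.29 in WT, with a limma adjusted p of 0.0886, without overlap between the groups. The AP-1 gene Fosl1 read 6.72 ± 0.32 in cKO and 7.57 ± 0.46 in WT on 1417487_PM_at, with a limma adjusted p of 0.0909. Without WT replicate 4, 7 probe sets of this list were lower, of Hbegf, Myc, Ier3, Fosl1 and Epha2. All 30 probe sets of the immediate early list lay below 0 (median log2 change -0.27), and 1 passed, that of the zinc finger factor gene Egr2 at 8.06 ± 0.25 in cKO and 8.78 ± 0.27 in WT, with a limma adjusted p of 0.0387. Its brighter probe set, 1427682_PM_a_at, did not pass, at 9.47 ± 0.28 in cKO and 10.09 ± 0.25 in WT, with a limma adjusted p of 0.0728. Without WT replicate 4, 23 of these 30 probe sets passed, all lower in cKO, where 1.84% of all probe sets were called lower. With array weights 8 did, all lower, where 629 of 45037 probe sets were called lower. The pathway lists overlap, so a probe set can be counted in several of them. The list is the one used above as the covariate, and the first Egr2 probe set lost its call in 8 of the 15 alternatives that gave it a value, with the highest limma adjusted p, 0.609, under that covariate.

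In the core of the cascade, 1 gene rose. Of 21 listed genes 14 had a probe set annotated to them alone, and of their 30 probe sets 1 passed, 18 lying below 0 (median log2 change -0.01). It was that of Rasgrp1, a RAS activator that binds diacylglycerol and phorbol esters such as TPA. Rasgrp1 read 8.20, 8.31, 8.19 and 8.15 on the cKO arrays and 7.61, 7.73, 7.74 and 7.66 on the WT arrays (1431749_PM_a_at). Every cKO array was above every WT array by more than the spread within either genotype. The means were 8.22 ± 0.07 in cKO and 7.68 ± 0.06 in WT, 1.45-fold higher in cKO (log2 change 0.53, SE 0.06, limma adjusted p = 0.0015). The call held in 17 of 17 alternatives, with log2 changes of 0.47 to 0.58 and limma adjusted p of 0.00102 to 0.0298. The second Rasgrp1 probe set, 1434295_PM_at, did not pass, at 6.92 ± 0.08 in cKO and 6.52 ± 0.21 in WT, with a limma adjusted p of 0.0796. Of the FGF receptors and ligands, which act upstream, 12 of 25 probe sets lay below 0 and 0 were called by limma (2 lower and 1 higher at an unadjusted p under 0.05). The lowest p were those of the Fgfr2 probe set 1443211_PM_at, at 5.74 ± 0.13 in cKO and 6.01 ± 0.15 in WT, and of the ligand gene Fgf1, at 9.50 ± 0.19 in cKO and 9.26 ± 0.09 in WT, with limma adjusted p of 0.186 and 0.267. The brightest Fgfr2 probe set, 1433489_PM_s_at, stood at 10.97 ± 0.11 in cKO and 10.87 ± 0.06 in WT, with a limma adjusted p of 0.487.

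**Figure D4:**
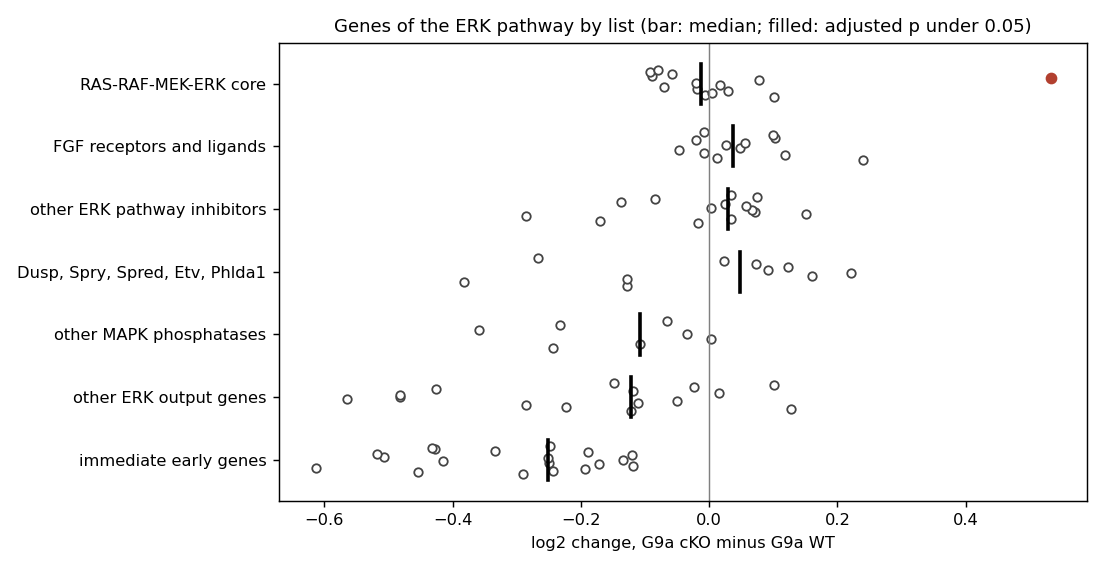
Log2 change, G9a cKO minus G9a WT, of each gene of 7 lists by its probe set with the highest mean. Each point is a gene, vertical bars are list medians, and the filled point is Rasgrp1, the 1 gene whose brightest probe set passed the threshold. The passing Egr2 probe set is the dimmer of its pair and is not drawn. The Dusp, Spry, Spred, Etv and Phlda1 genes lie on both sides of 0, between -0.38 and 0.22, while all 19 immediate early genes lie below it.

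The genes whose deviations from the genotype means were most like the mean of the 10 genes were Chka, a choline kinase gene, Unc45a, a myosin chaperone gene, Nfkbiz, a regulator of NF-kB targets, Fchsd2 and the mitochondrial chaperone gene Hspa9. Their Pearson correlations ran from 0.98 to 1.00 and their Spearman correlations from 0.95 to 1 over 8 arrays. They are the 5 highest of all named probe sets on few arrays, and the Fchsd2 probe set lay at a percent rank of 1.97, near the bottom of the scale.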

How the data were processed

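Total RNA of bulge cells from 8 animals was amplified by whole transcriptome amplification from 25 ng with 17 cycles, and 8 µg of cDNA were hybridised to Affymetrix arrays, per the labels' protocols. The deposited values are on the log2 scale, 1 per probe set and array, and the authors obtained them by RMA, per the submitters' processing notes; version and settings are not given in the sources. RMA compresses differences near the bottom of the scale, so differences of dim probe sets are understated. No further normalization was applied, and 0 columns of other samples were present.

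Of 45141 probe sets 104 controls were left out, 28898 had 1 gene symbol, 551 had several and were not named, and 15692 had none here, controls included. The 4 G9a cKO and 4 G9a WT arrays were compared over 45037 probe sets in R 4.3.3 with limma 3.58.1 (two-sided moderated test, mean-variance trend in eBayes, no covariate, dim probe sets kept), with Benjamini-Hochberg adjustment over all of them and a threshold of 0.05. SD is over animals and SE is that of the fit. Precision is limited by the number of arrays. The fit was tested on simulated data with noise drawn independently for each probe set.

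The genes, the pathway lists and the alternatives were chosen with earlier results of these data known, so no list is independent evidence of its direction. Named are every probe set of the 10 genes, Ehmt2, the probe sets past the threshold of each pathway or marker list (up to 4) or the 2 with the lowest p where none passed, and the 5 genes most like the 10; genes named beyond these were picked with their values known. No pairing by replicate number is stated in the labels, and none was used in the main fit. The deviations of same-numbered arrays correlated at -0.32, -0.27, -0.54 and 0.07, which cannot show whether the animals were matched. Promoter sequences are from RefSeq, and their motifs were chosen after values were seen. Plots were made in Python 3.11.15 with matplotlib 3.10.9.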

Additional observations from a re-analysis of the deposited data

Results flagged for a closer look

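Dixon's test was applied to 106 groups of 4 arrays, those of the probe sets named by the rule, and marked 3 of them, where chance marks about 1 in 20. Spry2 on 1421656_PM_at was high in cKO replicate 2, at 8.08 against 7.93 to 7.95 on the other cKO arrays. The T cell gene Cd3e was low in cKO replicate 1, at 3.79 against 3.84 to 3.85, near the bottom of the scale. The endothelial receptor gene Kdr was high in cKO replicate 1, at 4.83 against 4.71 to 4.73.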

How the results depend on the processing

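None of the 22 probe sets of the 10 genes was past the threshold in 16 of 17 alternatives; 2 were without WT replicate 4, Dusp6 at -0.55 and Spry4 (1440867_PM_at) at -0.40. Over the fits that left out 1 array, the number of these probe sets called ran from 0 to 2 and their median log2 change from 0.04 to 0.13. Of 347 values of these probe sets under the alternatives, 328 kept their direction and their side of the threshold, and 17 changed sign, all of them uncalled. With the immediate early mean as covariate the log2 change was 0.16 for Dusp6, 0.22 for Spry2 (1421656_PM_at), 0.024 for Spred2 (1441415_PM_at), and 0.073, 0.071 and 0.042 for Spry4 (1422020_PM_at, 1440867_PM_at and 1445669_PM_at). Array weights gave -0.0069 for Spry4 (1422021_PM_at) and 0.0072 for Spred2 (1441415_PM_at). Over the fits without 1 array, signs changed within -0.096 to 0.039 and -0.0077 to 0.063 for Spry2 (1421656_PM_at and 1436584_PM_at), -0.056 to 0.046 and -0.027 to 0.088 for Spry4 (1422020_PM_at and 1422021_PM_at), -0.067 to 0.046 for Spred2 (1441415_PM_at) and -0.24 to 0.013 for Etv4. Over all probe sets, 536 were higher and 266 lower with all arrays. These counts were 828 and 629 with array weights and 101 and 52 with the covariate. With the replicate block they were 308 and 146, and none of the 22 was called. Whether the replicate numbers pair the arrays is not known, and the block changed no call among the 22. With 1 probe set per gene, where fewer features were tested, they were 329 and 143, and 346 and 149 with probe sets averaged per gene. Over the fits without 1 array they ran from 297 to 862 higher and from 122 to 829 lower, the highest being those without WT replicate 4. Without cKO replicate 2 they were 297 and 122, without WT replicate 3 319 and 134, and without WT replicate 1 343 and 158, while 139 were lower without cKO replicate 3 and 132 without cKO replicate 4. The cause of these shifts was not tested. Dim probe sets such as that of Dusp4 and 2 of the 4 of Spry4 carry little signal over background, which limits what they can show.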
